A study of Homo sapiens with 45 samples.

Results

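The retinoic acid clearance enzymes described here are 4 genes, CYP26A1, CYP26B1, CYP26C1 and DHRS3, chosen by name among the 58233 genes of the human tables and followed over all 15 sampled days, with odd and even days told apart from day 9 on. Of these, 3 passed the filter on low counts that left 19436 genes for testing, and CYP26C1 did not. H9, the human embryonic stem cell line used, is an established line. From day -3 to day -1 the cells were grown as neuromesodermal progenitors, a tail bud population with both spinal cord and paraxial mesoderm fates, in CHIR99021 (3 µM, a GSK3 inhibitor that activates Wnt signalling), bFGF (5 ng/ml), SB431542 (10 µM) and DMH1 (2 µM), which block the TGF-beta and BMP receptors, with a ROCK inhibitor (10 µM) for the first 48 h. On day 0, which is labelled as the control and was sampled with 3 libraries, 175000 cells per dish were replated in retinoic acid (RA, 100 nM) and SAG (500 nM), a Smoothened agonist that activates Hedgehog signalling, again with the ROCK inhibitor (10 µM) for 48 h. Days 1, 2 and 4 to 15 were sampled with 3 libraries each in RA and SAG, so every library is from this 1 line and no day has a parallel culture without RA. The labels say that the medium was renewed every other day but not on which days, so the parity of a day and the time since a medium change cannot be told apart. The replicates are called only bioreps, so the p-values measure the spread between these samples. In bulk RNA, fewer cells of a type and less RNA per cell cannot be told apart.

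Retinoic acid is made from retinol (vitamin A) by way of retinaldehyde, binds nuclear receptors and patterns the hindbrain and spinal cord. CYP26A1, CYP26B1 and CYP26C1 are cytochrome P450 enzymes that hydroxylate RA and so start its breakdown, and they need electrons from the reductase POR. DHRS3 acts a step earlier: it reduces retinaldehyde back to retinol and so holds down the supply of RA. CYP26A1 and DHRS3 are textbook examples of genes that RA itself induces, which closes a feedback loop.

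CYP26A1 (ENSG00000095596) lies on GRCh38 chr10:93073475-93077890 on the plus strand, and CYP26C1 (ENSG00000187553) lies on the same strand at chr10:93060808-93069536, with 3938 bases between them. Both overlap the processed transcript AL358613.3 on the same strand, so the sharing of reads among these genes is uncertain. CYP26B1 (ENSG00000003137) lies at chr2:72129238-72148038 on the minus strand and overlaps no other annotated gene. DHRS3 (ENSG00000162496) lies at chr1:12567910-12617731 on the minus strand and has the small RNA genes RNU6ATAC18P and MIR6730 inside it.

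RA receptors bind pairs of hexamers, of which the classic form is a direct repeat spaced by 5 bases. The promoter windows of RefSeq (250 bases before to 50 after each start, GRCh38.p14) were searched on both strands for the hexamer AGGTCA and its variants AGTTCA or GGGTCA or GGTTCA, and for any 2 of them as a direct repeat with a spacing of 5, 2 or 1. All 4 genes had windows: 2 for CYP26A1, 1 for CYP26B1, 1 for CYP26C1 and 3 for DHRS3. The 3 stretches below show how the matches differ between the genes, with the matching letters in capitals, each read 5′ to 3′ on the strand of its gene.
CYP26A1, chr10:93073797-93073826, plus strand: taaagaTGAACTTTGGGTGAACTaattgtc
CYP26C1, chr10:93060720-93060749, plus strand: cgtcacgttgtgTGAACCgggatcggtccg
DHRS3, chr1:12616944-12616973, minus strand: tcttttttggcaGGTTCAgagttgatccgc
The CYP26A1 stretch holds 2 copies of AGTTCA on the opposite strand as a direct repeat spaced by 5, 90 to 74 bases before a RefSeq start. It also lies within the first exon of a longer annotated CYP26A1 transcript. That exact repeat was in 4 of 35116 windows (0.0114%), and any direct repeat of the 4 hexamers with this spacing was in 31 (0.0883%). Repeats spaced by 2 or by 1 were in 0.0399% and 0.131% of the windows and in none of these 4 genes. CYP26C1 and DHRS3 held single hexamers, GGTTCA on the opposite strand 66 to 61 bases before the start of CYP26C1 and GGTTCA 172 to 167 bases before an internal start of DHRS3. Another DHRS3 window (chr1:12596564-12596863) held AGGTCA on the opposite strand, 171 to 166 bases before a start that is also internal. Single hexamers were common: AGTTCA was in 10.4% of all windows, AGGTCA in 13.8%, GGGTCA in 14.1%, GGTTCA in 8.62%, and any of them in 38.6%. The CYP26B1 window held none of these letters. A match describes the letters in a window and does not show that a receptor binds there.

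The 31 windows with the spaced repeat belonged to 29 genes, of which 12 were tested. From day 0 to day 1, 5 of the 12 rose and 2 fell, beside 30.1% and 31.7% of all genes tested. CYP26A1 itself was 1 of the 5. Between odd and even days from day 9 on, 3 of the 12 were higher on odd days and 0 were lower, beside 6.99% and 11.7%. One of the 3 was RARB, the RA receptor gene that RA induces, and the others were CYP26A1 itself and PHF8, a histone demethylase gene, at 0.09 ± 0.02 on the log2 scale.

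Per transcript length, the order of the genes was the same on every sampled day: DHRS3 was highest, then CYP26A1, CYP26B1 and CYP26C1 in TPM, the deposited transcript abundance scaled for length and library total. Neighbours in that order did not overlap between their 3 libraries on any day, with the exception of CYP26A1 and CYP26B1 on day 0. On day 1 the mean TPM was 14.7 ± 0.53 for the 3 CYP26 genes together, of which CYP26A1 made up 97.3% ± 0.51 (SD, n = 3). The CYP26 sum was 3.71 ± 0.97 TPM on day 8, 36.5 ± 0.57 on day 9, 9.96 ± 1.2 on day 10 and 38 ± 4.8 on day 11. It was therefore high on days 9 and 11 and low on the even days beside them.

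**Figure D1:**
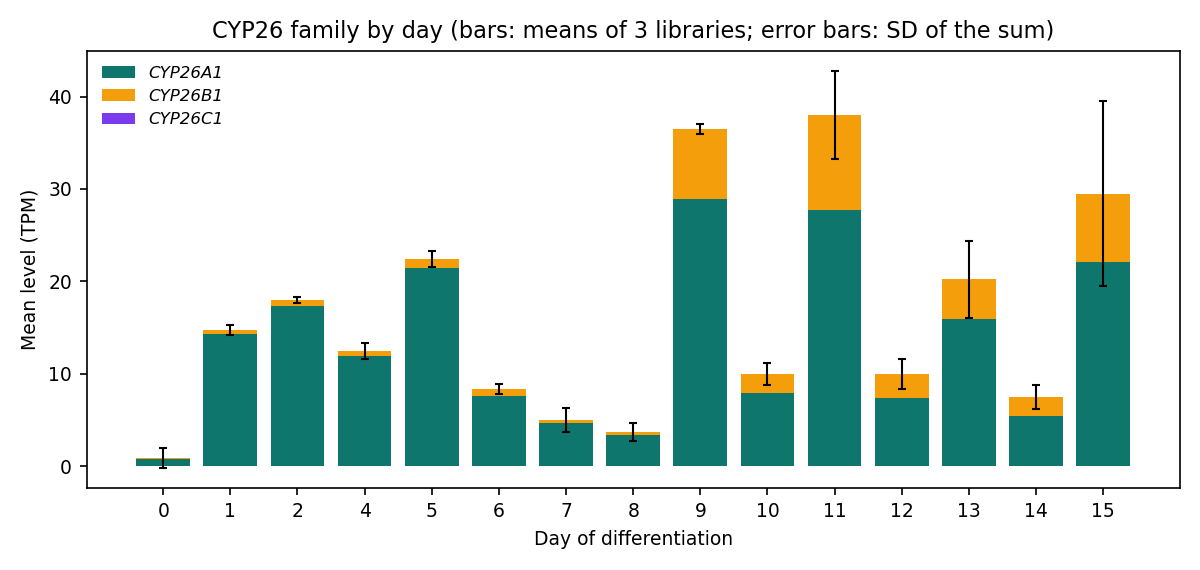
Mean level in TPM (vertical axis) of CYP26A1, CYP26B1 and CYP26C1, stacked, on each sampled day (horizontal axis); error bars are the SD of the sum over 3 libraries. The bars of days 9 (36.5 TPM) and 11 (38 TPM) stand above those of days 8 (3.71 TPM) and 10 (9.96 TPM), and CYP26C1 is too low to be seen.

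The make-up of the CYP26 pool differed between the early and the late days. CYP26B1 gave 2.13% to 15.1% of the CYP26 TPM in the 21 libraries of days 1 to 8, with a median of 4.61%. It gave 16.5% to 32.8% in the 12 libraries of days 9, 11, 13 and 15 (median 22.8%) and 13% to 32% in the 9 libraries of days 10, 12 and 14 (median 23.6%). So its share was larger from day 9 on, on odd and even days alike, while the size of the pool alternated. DHRS3 exceeded the CYP26 sum in every library, by 1.53 to 1.62 times on day 2 and by 15.9 to 18.8 times on day 14.

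CYP26C1 was near the limit of detection. It had 45 counts over all 45 libraries, was seen in 24 of them, and never exceeded 5 counts in a library or 10 in a day. Its highest level was 0.132 CPM (counts scaled to the library size with TMM factors). On days 0, 1 and 13 it had no counts, which allows up to 0.0306, 0.036 and 0.0252 CPM (3 counts over the 3 libraries of a day; counting error only). No change in CYP26C1 could be tested at this depth.

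**Figure D2:**
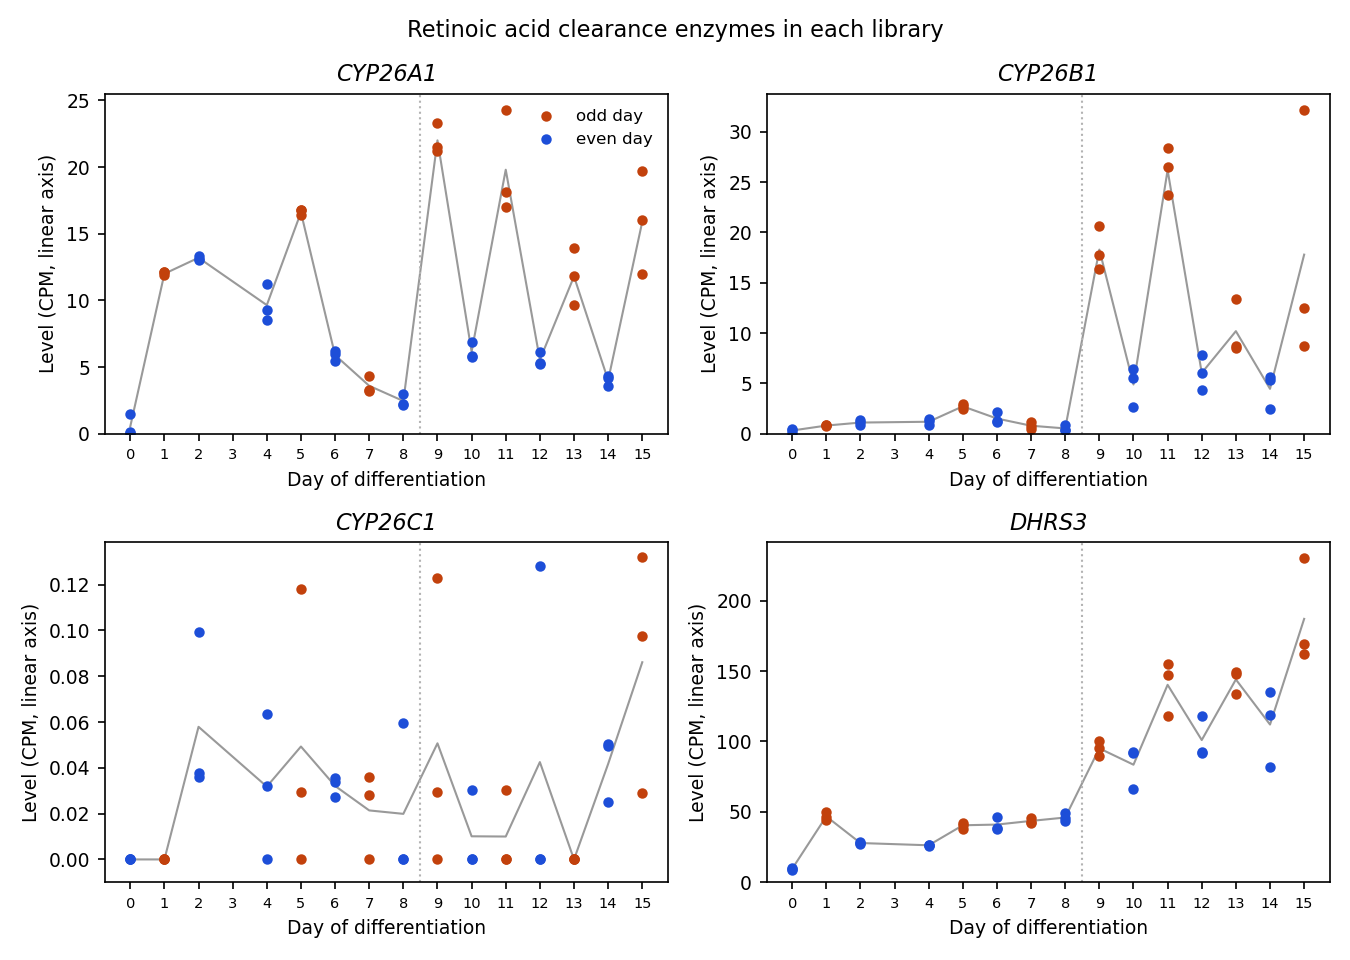
Level in CPM (vertical axis, linear, with its own range in each panel) of each gene in each of the 45 libraries by day (horizontal axis); points are libraries, orange on odd and blue on even days, the grey line joins day means, and the dotted line separates days 8 and 9. CYP26A1 and CYP26B1 sit high on each odd day from day 9 and low on each even day from day 10, DHRS3 climbs with smaller swings, and CYP26C1 stays at or under 0.132 CPM.

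All 3 tested genes changed over the time course (edgeR quasi-likelihood F test over all days, Benjamini-Hochberg adjusted p = 1.7e-16 for CYP26A1, 3.9e-16 for CYP26B1 and 2.4e-22 for DHRS3), as did 91.5% of the genes tested. The first question was what changed from day 0 to day 1, the first day in RA and SAG. CHIR99021, bFGF, SB431542 and DMH1 were given from day -3 to day -1, and the cells were replated with ROCK inhibitor on day 0. The part of RA in this step cannot be told apart from the part of these changes. From day 0 to day 1, 2 of the 3 rose, CYP26A1 and DHRS3, in a comparison in which 61.7% of all genes were called at an adjusted p under 0.05.

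CYP26A1 stood at 0.151, 1.47 and 0.031 CPM in the day 0 libraries and at 11.9, 12.1 and 12.1 CPM on day 1. The groups did not overlap, the day 1 libraries lay close together, and day 0 replicate 2 stood above the other day 0 libraries. The log2 change was 4.44 ± 0.34 (SE, adjusted p = 2.6e-13), and without day 0 replicate 2 it was 6.98. The summed level of 12 neuromesodermal progenitor markers was 2077, 2110.3 and 1968 CPM in the 3 day 0 libraries in the same order. Single markers of the list differed more. TBXT (21.9, 34.1 and 14.9 CPM), EVX1 (12.5, 25.8 and 6.28 CPM) and FGF17 (193, 297 and 157 CPM) were highest in replicate 2. NKX1-2 (1041, 910.1 and 984 CPM) and WNT8A (23.7, 22.3 and 33 CPM) were lowest in it. A link of these markers to CYP26A1 was not tested. DHRS3 stood at 9.21, 10.4 and 9.1 CPM on day 0 and at 46.7, 44.1 and 49.8 CPM on day 1. Its groups did not overlap, and the log2 change was 2.29 ± 0.16 (adjusted p = 4.2e-14). CYP26B1 stood at 0.0606, 0.52 and 0.402 CPM on day 0 and at 0.829, 0.896 and 0.735 CPM on day 1. All day 1 libraries were above those of day 0, but at 1.33 ± 0.78 the change did not pass (adjusted p = 0.14). It passed in DESeq2 (adjusted p = 0.018).

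Cell type markers changed at the same step. Of 11 tested neuromesodermal progenitor genes, 10 fell and 1 rose, and their summed level went from 1968 to 2110.3 CPM in the day 0 libraries to 71.8 to 74.2 CPM on day 1. Of 11 neural progenitor genes, 9 rose and 0 fell, and their sum went from 2271 to 2585 CPM to 6298 to 6672 CPM. The part of this turnover in the rise of CYP26A1 and DHRS3 was not tested.

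Other genes of the RA pathway on day 1 are given from lists by role. Of 6 receptor genes, 4 rose and 2 fell, with RARB from 0.173 ± 0.034 to 110.1 ± 2.5 CPM and RARG, another RA receptor gene, from 151 ± 4.5 to 17.5 ± 1 CPM. All 3 RA binding protein genes rose, led by CRABP2, which carries RA to its receptors (509.8 ± 56 to 1326 ± 28 CPM). All 3 tested genes listed for retinol uptake and storage fell: LRAT, which esterifies retinol for storage, went from 16.4 ± 3.8 to 0.308 ± 0.11 CPM and STRA6, a retinol uptake receptor, from 161 ± 17 to 14.2 ± 0.18 CPM, and RETSAT, a retinol saturase gene, changed by -0.51 ± 0.08 on the log2 scale. Of 9 tested synthesis genes, 2 fell (RDH11 and RDH14) and 0 rose. Of 9 genes known to be induced by RA, 5 rose and 4 fell. MEIS1, MEIS2, PRMT8, TSHZ1 and NRIP1 rose. HOXB1 (108 ± 11 to 51.7 ± 1.4 CPM), HOXA3 (42.2 ± 3.2 to 19.6 ± 1.6 CPM), HOXB4 (47.3 ± 3.1 to 32.4 ± 0.27 CPM) and TGM2, which was under 1 CPM, fell. The median log2 changes were 1.41 for the RA-induced genes, 1.24 for the binding proteins and -3.51 for uptake and storage, beside 0 for all genes tested.

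From day 1 to day 8 the genes took different courses. CYP26A1 was at 13.1, 13.3 and 13 CPM on day 2 and at 9.27, 8.5 and 11.2 CPM on day 4, and neither step passed (adjusted p = 0.74 and 0.15; the step from day 2 to 4 called 35.5% of all genes). On day 5 it was at 16.8, 16.8 and 16.4 CPM, above every library of day 4, with a log2 change of 0.78 ± 0.23 (adjusted p = 0.033). On day 6 it was at 5.49, 6.22 and 5.99 CPM, below every library of day 5, with a change of -1.5 ± 0.24 (adjusted p = 6.1e-05). Day 5 was thus a single early high point of CYP26A1. It stood at 3.6 ± 0.61 CPM on day 7 and 2.46 ± 0.46 CPM on day 8, and these steps did not pass (adjusted p = 0.12 and 0.27). None of the 3 genes was called in edgeR from day 2 to 4, from day 6 to 7 (background 6.33%) or from day 7 to 8 (background 9.78%). At an unadjusted p under 0.05 the count was 0, 1 and 0, the 1 being CYP26A1 from day 6 to 7 (0.013), which DESeq2 called (adjusted p = 0.023).

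DHRS3 fell from day 1 to day 2, when it was at 27, 28.4 and 28.2 CPM, by 0.75 ± 0.15 on the log2 scale (adjusted p = 0.00024). No library of day 2 reached the level of day 1. It was the 1 of the 3 genes called at that step, beside 23.3% of all genes. From day 4 (26.6, 25.5 and 26.8 CPM) to day 5 (38.2, 41 and 42.3 CPM) DHRS3 rose with no overlap, by 0.62 ± 0.15 (adjusted p = 0.0083). With CYP26A1, 2 of the 3 genes were called from day 4 to day 5, beside 6.72% of all genes, and CYP26B1 went from 1.2 to 2.73 ± 0.28 CPM without passing (adjusted p = 0.19). From day 5 to day 6, CYP26A1 was the 1 called of the 3, beside 8.43% of all genes. DHRS3 then held between 37.8 and 49.1 CPM in the libraries of days 6 to 8, with no step passing. The call of CYP26A1 from day 4 to day 5 was lost without replicate 1 (adjusted p = 0.32), without replicate 3 (0.078), without the low-count filter (0.074) and on log2(TPM + 0.1) (0.25). That of DHRS3 was lost without replicate 1 (0.14) and without replicate 3 (0.064).

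Day 9 brought a rise in all 3 tested genes, in a comparison with day 8 in which 21.5% of all genes were called. CYP26B1 stood at 0.865, 0.395 and 0.35 CPM on day 8 and at 16.4, 17.8 and 20.6 CPM on day 9. Every day 9 library was far above every earlier library of the series, of which the highest was at 3 CPM. Its log2 change of 5.08 ± 0.48 (adjusted p = 5.4e-09) ranked 11 from the top among the 19436 genes. CYP26A1 went from 2.24, 2.99 and 2.16 CPM to 21.5, 23.3 and 21.2 CPM. The groups did not overlap, and the log2 change was 3.15 ± 0.26 (adjusted p = 1.6e-10). DHRS3 went from 49.1, 45.4 and 43.3 CPM to 95.5, 100.2 and 89.6 CPM. It too showed no overlap, with a log2 change of 1.05 ± 0.14 (adjusted p = 2.2e-06).

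Other RA genes moved at the same step. Of 9 RA-induced genes, 7 rose and 0 fell, beside 10.5% and 11% of all genes. Among the 7 were HOXB1 (74.8 ± 3.7 to 111 ± 5.4 CPM), HOXB4 and HOXA3, hindbrain and spinal cord patterning genes. These HOX genes had fallen from day 0 to day 1. RARB went from 39.7 ± 1.3 to 69.4 ± 2.6 CPM, while RARG and RXRG were among 3 receptor genes that fell. Of 9 synthesis genes, 2 rose and 0 fell. One was ALDH1A2, which makes RA from retinaldehyde, from 2.91 ± 0.59 to 17.8 ± 1.6 CPM (log2 change 2.61 ± 0.29, adjusted p = 9.5e-08), and the other was RDH10, which makes retinaldehyde from retinol. STRA6 fell from 12.4 ± 1.2 to 4.79 ± 0.44 CPM. The summed level of 9 mesoderm and mesenchyme markers was 329 to 415 CPM on day 8 and 263 to 324 CPM on day 9. Most of this sum was COL1A1 (344 ± 43 and 261 ± 32 CPM), which was not called. Of the 9, MEOX1 (0.95 ± 0.28) and PDGFRA (0.84 ± 0.21) rose and 0 fell. The sum of 9 pan-neuronal markers was 6185 to 6829.9 CPM on day 8 and 7934 to 8614 CPM on day 9, and 3 of them rose and 0 fell. Of 11 neural progenitor genes, 6 fell and 0 rose, and their sum was 6575 to 6635 CPM on day 8 and 5934 to 6024 CPM on day 9. The part of these cell types in the rise was not tested.

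From day 9 to day 15, CYP26A1, CYP26B1 and DHRS3 each went down at every step to an even day and up at every step to an odd day, by the sign of the fitted change. That was so for 6.81% of all genes tested (1323 genes). The sizes of the steps differed between the genes. CYP26A1 stood at 6.86, 5.87 and 5.75 CPM on day 10, 17, 18.1 and 24.3 on day 11, and 5.31, 5.23 and 6.1 on day 12. It then stood at 13.9, 9.63 and 11.8 CPM on day 13, 4.3, 3.6 and 4.16 on day 14, and 12, 16 and 19.7 on day 15. Each odd-day library was above each even-day library, and all 6 steps passed, with log2 changes of -1.84 ± 0.23, 1.68 ± 0.23, -1.83 ± 0.24, 1.09 ± 0.24, -1.55 ± 0.24 and 1.99 ± 0.24 in order of time.

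CYP26B1 stood at 6.44, 2.67 and 5.57 CPM on day 10, 28.4, 23.7 and 26.5 on day 11, and 4.32, 7.82 and 6.01 on day 12. It then stood at 8.7, 8.52 and 13.4 CPM on day 13, 5.3, 2.48 and 5.62 on day 14, and 8.68, 12.5 and 32.2 on day 15. Again no even-day library reached the lowest odd-day library, but day 13 lay close above day 12 and day 15 replicate 3 stood apart from the other day 15 libraries. The steps to days 10, 11, 12 and 15 passed, with log2 changes of -1.9 ± 0.36, 2.42 ± 0.36, -2.12 ± 0.35 and 2 ± 0.35. Those to day 13 (0.76 ± 0.35, adjusted p = 0.24) and day 14 (-1.19 ± 0.36, adjusted p = 0.17) did not. Without day 15 replicate 3 the step to day 15 was 1.25 (adjusted p = 0.028) and that to day 14 passed (adjusted p = 0.047), and without all libraries numbered 3 the step to day 15 was 1.44 and did not pass (adjusted p = 0.1). In day 15 replicate 3 DHRS3 was highest of its day too, at 230.5 CPM.

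DHRS3 stood at 91.5, 66.4 and 92.7 CPM on day 10, 155, 147 and 118 on day 11, and 92.7, 118 and 92 on day 12. It then stood at 134, 148 and 149 CPM on day 13, 119, 81.8 and 135 on day 14, and 162, 169.5 and 230.5 on day 15. Its swings lay on a rising level, and libraries overlapped between days 9 and 10, days 11 and 12, and days 13 and 14. The steps to days 11, 12, 13 and 15 passed (0.75 ± 0.14, -0.47 ± 0.14, 0.51 ± 0.14 and 0.74 ± 0.14), and those to days 10 (-0.19 ± 0.14, adjusted p = 0.34) and 14 (-0.36 ± 0.14, adjusted p = 0.31) did not. The call at day 12 (adjusted p = 0.046) was lost without the low-count filter (0.11), without replicate 1 (0.49) and without replicate 3 (0.11), and that at day 13 (adjusted p = 0.029) was lost under the same settings (0.06, 0.34 and 0.17).

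The number of the 3 genes called at each step can be read against all genes. It was 2 from day 9 to 10 (background 29.6%), 3 from day 10 to 11 (5.55%), 3 from day 11 to 12 (3.41%), 2 from day 12 to 13 (3.52%), 1 from day 13 to 14 (0.314%) and 3 from day 14 to 15 (4.05%). At the step from day 13 to 14, when 61 genes were called in all, the 1 was CYP26A1 (adjusted p = 0.0016), and this call was lost without replicate 1 (adjusted p = 0.4) and on log2(TPM + 0.1) (0.16). Over the 13 steps after the first, 21 of 39 tests of these genes passed, and 12 passed without replicate 1. At single steps among the 13, from 0.314% to 35.5% of all genes were called in the fit of all libraries. Beside those already named, the calls lost without replicate 1 were CYP26A1 at day 13 (adjusted p = 0.31, and 0.21 on log2(TPM + 0.1)), CYP26B1 at day 12 (0.055) and DHRS3 at days 11 (0.11) and 15 (0.077).

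**Figure D3:**
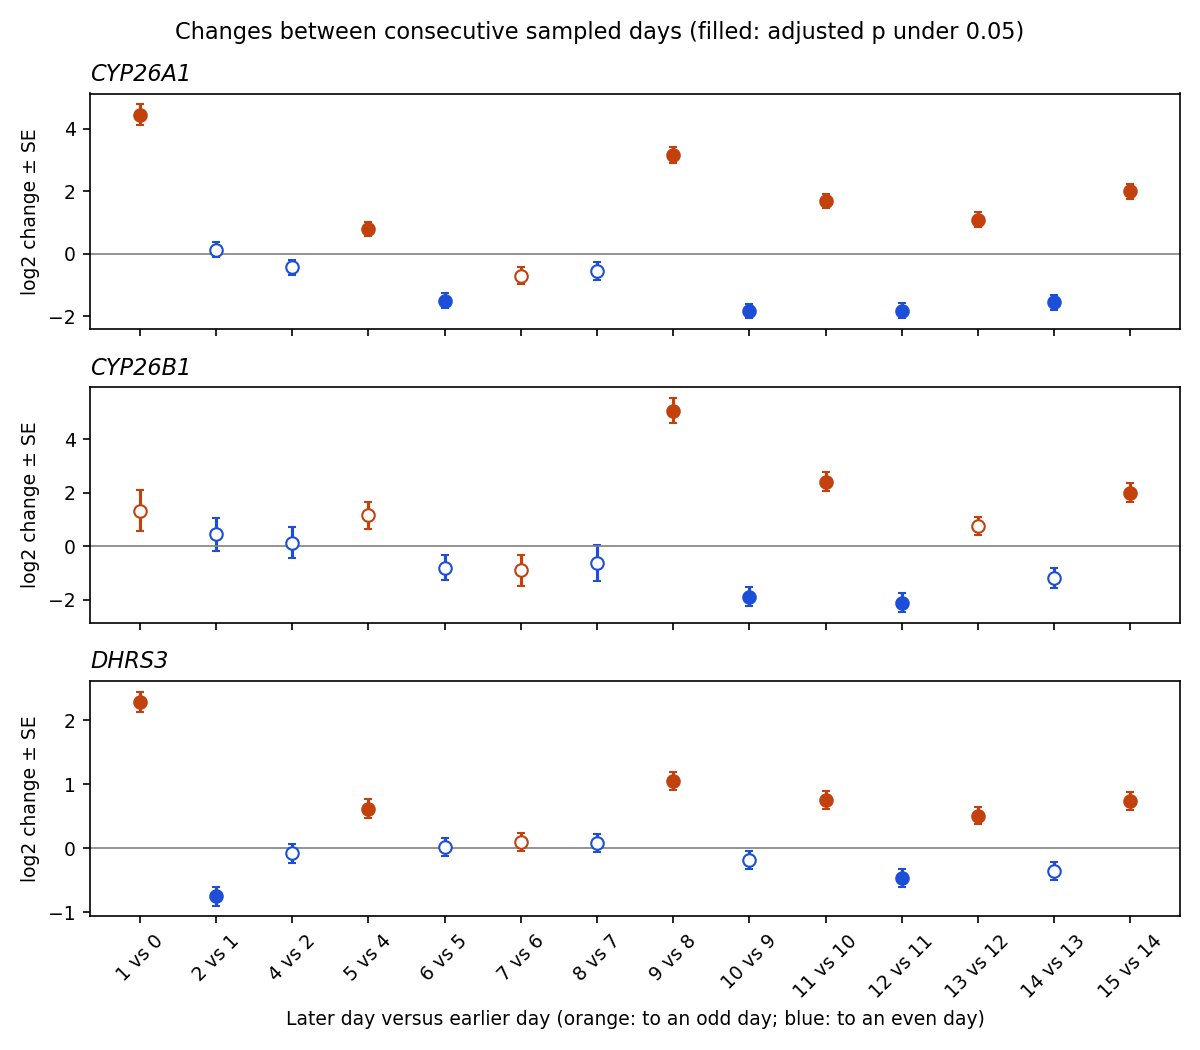
Log2 change ± SE (vertical axis, with its own range in each panel) of the 3 tested genes between consecutive sampled days (horizontal axis); filled points passed at an adjusted p under 0.05, orange steps end on an odd and blue steps on an even day. From the step of day 10 onward orange points lie above 0 and blue points below 0 in every panel, with steps of up to 2.42 for CYP26B1 and up to 0.75 for DHRS3.

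The contrast of odd days (9, 11, 13 and 15) with even days (10, 12 and 14) has the same mean day, 12, on both sides, so a linear trend cancels in it. Its SEs, intervals and adjusted p-values rest on the spread of libraries within days. They do not measure the spread between days of the same parity. All 3 tested genes were higher on odd days, in a contrast in which 18.7% of all genes were called, 6.99% as higher and 11.7% as lower. CYP26A1 ranged from 9.63 to 24.3 CPM (median 17.6) in the 12 odd-day libraries and from 3.6 to 6.86 CPM (median 5.31) in the 9 even-day libraries. The ranges did not overlap, and the log2 difference was 1.71 ± 0.13 (3.28-fold, 95% interval 1.45 to 1.97 on the log2 scale, adjusted p = 4.4e-11). CYP26B1 ranged from 8.52 to 32.2 CPM (median 17.1) on odd and from 2.48 to 7.82 CPM (median 5.57) on even days. It did not overlap either, with a log2 difference of 1.75 ± 0.19 (3.37-fold, 95% interval 1.37 to 2.14, adjusted p = 1.8e-07). DHRS3 ranged from 89.6 to 230.5 CPM (median 148) on odd and from 66.4 to 135 CPM (median 92.7) on even days. These ranges overlapped, and the log2 difference was 0.49 ± 0.07 (1.4-fold, adjusted p = 1.8e-05).

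An exact two-sided permutation test over the 7 day means gave p = 0.0571 for CYP26A1 and for CYP26B1, which is the smallest p that 4 days against 3 allow, and p = 0.171 for DHRS3. In the fit with each day from 9 to 15 left out in turn, the difference of CYP26A1 ran from 1.53 to 1.89, that of CYP26B1 from 1.55 to 2 and that of DHRS3 from 0.34 to 0.67, and each passed. Library features overlapped between odd and even days: total counts ran from 29457423 to 39066247 on odd and from 30344246 to 38449969 on even days, and the mitochondrial share from 2.326% to 4.352% and from 2.739% to 3.958%.

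Of all 19436 genes, 15 (0.0772%) had every odd-day library above every even-day library. CYP26B1 and CYP26A1 had the largest differences of the 15. The other 13 were examined after their values were seen. They included ADAMTS9, a secreted protease gene (0.87 ± 0.05), FRZB, a secreted Wnt antagonist gene (0.57 ± 0.06), and the HOX genes HOXB9 (0.37 ± 0.03), HOXB3 (0.33 ± 0.02), HOXB8 (0.3 ± 0.03) and HOXA3 (0.27 ± 0.04).

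The rest of the RA pathway was split in the same contrast. Of 9 RA-induced genes, 6 were higher on odd days and 0 lower, with HOXB1 at 0.46 ± 0.04, HOXB4 at 0.4 ± 0.03 and TSHZ1, a zinc finger gene, at 0.28 ± 0.04, and the median of the list was 0.27 beside -0.01 for all genes. Of 6 receptor genes, RARB (0.55 ± 0.05) and RARA (0.13 ± 0.03) were higher and 0 were lower. RARB stood at 69.4, 33.6, 46, 34.2, 37, 27.3 and 38.9 CPM on days 9 to 15 (day means), so its smallest swing was between days 12 and 13. CRABP2 was the 1 of 3 binding protein genes called (0.43 ± 0.06). Its day means of 448, 167, 195, 109, 96, 68.6 and 53.5 CPM went down over these days and rose only from day 10 to 11. Of 3 tested genes of retinol uptake and storage, LRAT (-0.94 ± 0.11) and STRA6 (-0.51 ± 0.08) were lower on odd days and 0 were higher. Of 9 synthesis genes, RDH5 (0.6 ± 0.16), a retinol dehydrogenase gene, was higher and RDH10 (-0.17 ± 0.06) lower. RDH10 had day means of 8.07, 14.1, 15.5, 16.4, 16.3, 15.7 and 17.1 CPM on days 9 to 15. It was low on day 9 and did not alternate at every step after it. RDH5 was low, at 0.965 ± 0.18 CPM on odd and 0.641 ± 0.2 CPM on even days. ALDH1A2 stood at 0.34 ± 0.14 and did not pass. None of the 3 electron donor genes of the P450 enzymes, POR among them, passed.

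Markers of other cells differed in the same contrast, which cancels a linear trend but not a curved one. Of 9 pan-neuronal genes, 5 were higher on odd days and 0 lower, with STMN2 at 0.28 ± 0.09. Of 9 mesoderm and mesenchyme genes, 3 were lower, LUM and FOXC2 among them at -0.68 ± 0.11 and -0.68 ± 0.18, and 2 were higher. Of 6 floor plate genes, SHH (-0.51 ± 0.12) and FOXA2 (-0.49 ± 0.12) were lower and 0 higher. Of 7 tested neural crest and roof plate genes, MSX1 (-0.62 ± 0.14) and GDF7 (-0.34 ± 0.11) were lower and 0 higher. Of 11 neural progenitor genes, 2 were higher (HES5 and SOX3) and 3 lower (VIM, FABP7 and SOX2). Of 11 neuromesodermal progenitor genes, WNT3A (-1.3 ± 0.22) was lower and 0 higher, and no endothelium or blood gene of 6 passed. The summed mesoderm and mesenchyme markers ran from 263 to 1190.2 CPM on odd and from 277 to 1401 CPM on even days, and the pan-neuronal sum from 4532 to 8689.9 and from 4875 to 7201 CPM. The floor plate sum ran from 26.2 to 244 and from 50.6 to 258 CPM, the neural crest and roof plate sum from 6.87 to 15.1 and from 10.8 to 17.2 CPM, and the neural progenitor sum from 4727 to 6024 and from 5484 to 6655 CPM. The neuromesodermal sum ran from 1.82 to 6.8 and from 3.67 to 9.9 CPM. The ranges over all these days overlapped for each list. By day medians, the floor plate sum rose at each step from day 9 (27.2 CPM) to day 14 (219 CPM) and so did not alternate. The pan-neuronal sum fell from day 9 (8516 CPM) to day 10 (6060.1 CPM) and then rose at each step to day 13 (6753 CPM). The mesoderm and mesenchyme sum fell at each step from day 10 to day 13. The neural progenitor sum was lower on each odd day than on the even days beside it. Between days 9 and 10 alone the mesoderm and mesenchyme sum did not overlap (263 to 324 and 639 to 1401 CPM). Neither did the pan-neuronal sum (7934 to 8614 and 4975 to 7201 CPM). The floor plate (26.2 to 38.6 and 50.6 to 83.3 CPM) and neural progenitor sums (5934 to 6024 and 6137 to 6655 CPM) were apart too. So were the neural crest and roof plate (6.87 to 8.85 and 12.5 to 15.9 CPM) and neuromesodermal sums (3.89 to 5.28 and 6.84 to 9.9 CPM). The endothelium and blood sum overlapped (10.9 to 12.3 and 11.1 to 13.6 CPM). The part of these cells in the odd-even difference was not tested.

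**Figure D4:**
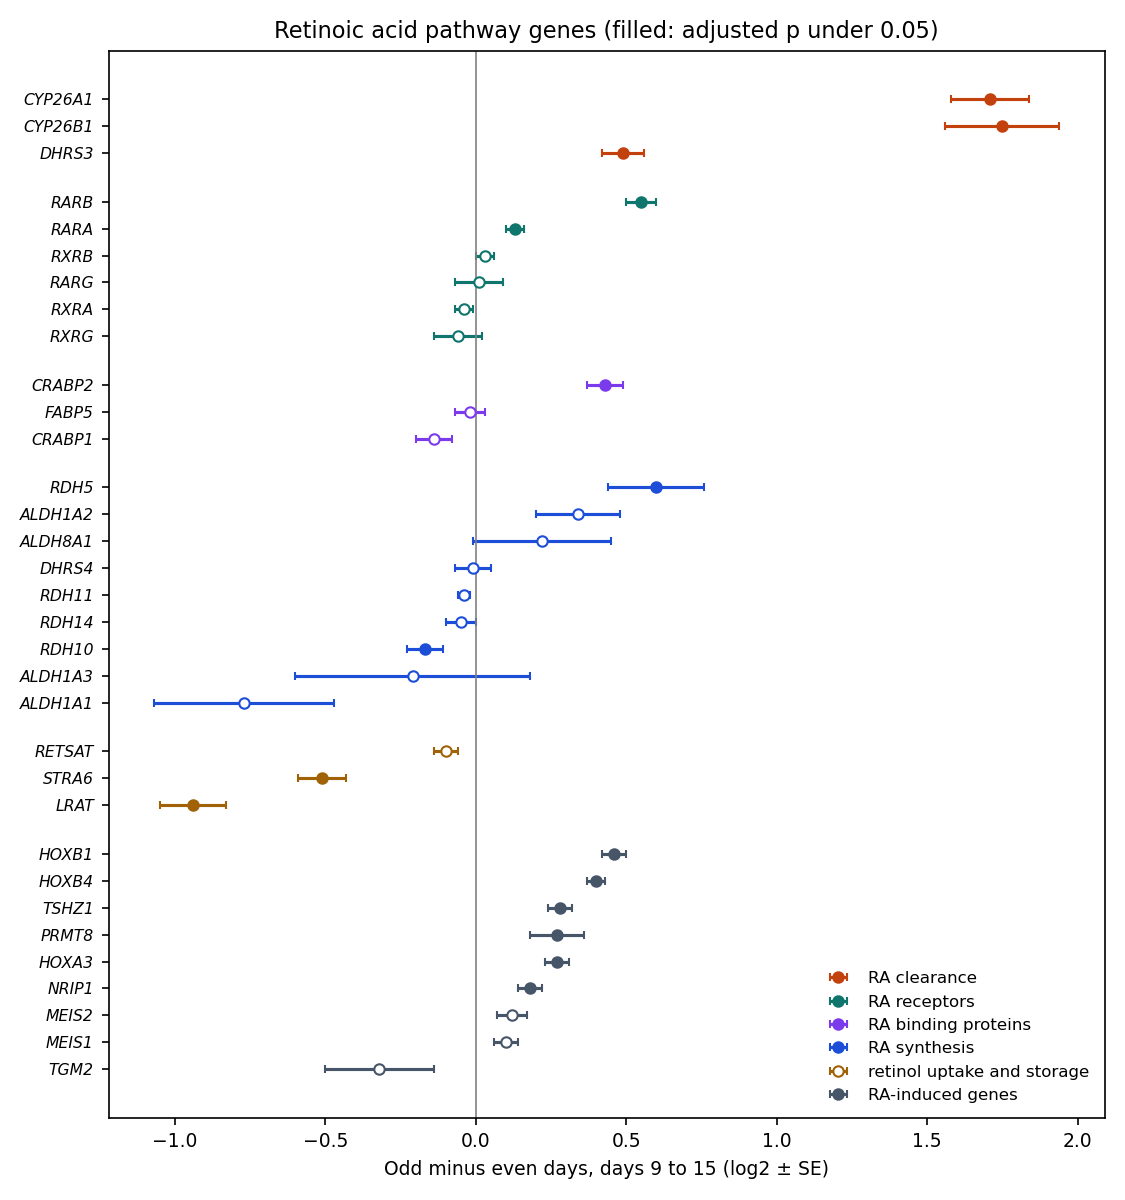
Odd minus even difference over days 9 to 15 (horizontal axis, log2 ± SE) of the 3 tested clearance genes and 30 other tested RA pathway genes (vertical axis, coloured by list); filled points passed at an adjusted p under 0.05. CYP26B1 (1.75) and CYP26A1 (1.71) lie farthest to the right, 6 of the 9 RA-induced genes lie to the right as filled points, and LRAT (-0.94) and STRA6 (-0.51) lie to the left.

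Before day 9 the same contrast was smaller in value. Over days 4 to 8, the mean of days 5 and 7 minus that of days 4, 6 and 8 was 0.57 ± 0.17 for CYP26A1 (adjusted p = 0.13), 0.57 ± 0.37 for CYP26B1 (0.65) and 0.19 ± 0.09 for DHRS3 (0.49), all on the log2 scale. None of the 3 passed in edgeR, beside 0.515% of all genes (100 genes), while at an unadjusted p under 0.05 CYP26A1 (0.0016) and DHRS3 (0.048) did. CYP26A1 also passed in DESeq2 (adjusted p = 0.0095). The late difference exceeded the early one by 1.14 ± 0.21 for CYP26A1 (adjusted p = 0.003), by 1.18 ± 0.42 for CYP26B1 (adjusted p = 0.11) and by 0.3 ± 0.12 for DHRS3 (adjusted p = 0.16). So 1 of the 3 passed the test of the difference itself, beside 3.94% of all genes, and the call of CYP26A1 was lost without replicate 1 (adjusted p = 0.16). This test too rests on the spread of libraries within days and not between days of the same parity.

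Read within odd or within even days, the level of the 2 tested CYP26 genes and that of DHRS3 took different courses. DHRS3 rose from day 9 to day 11 by 0.56 ± 0.14 (adjusted p = 0.0023), the 1 call of the 3 in that comparison, beside 25.3% of all genes. From day 11 to day 13, CYP26B1 fell by 1.36 ± 0.33 (adjusted p = 0.0069) and CYP26A1 fell by 0.75 ± 0.22 (adjusted p = 0.027), 2 of the 3 genes, beside 8.93% of all genes. These 3 calls were lost without replicate 1 (adjusted p = 0.17, 0.15 and 0.13), that of CYP26B1 also without replicate 2 (0.086) and on log2(TPM + 0.1) (0.086). That of CYP26A1 was also lost without replicate 3 (0.2), without the low-count filter (0.064) and on log2(TPM + 0.1) (0.29). No gene of the 3 was called from day 13 to 15, from day 10 to 12 or from day 12 to 14 in edgeR on all libraries, where the backgrounds were 10%, 10.2% and 5.07%. At an unadjusted p under 0.05 the step from day 13 to 15 counted CYP26B1 (0.02) and DHRS3 (0.0081), and the other steps counted 0. DHRS3 was called from day 13 to 15 in DESeq2 (adjusted p = 0.033), in edgeR without replicate 2 (0.048), on log2(TPM + 1) (0.04) and on log2(TPM + 0.1) (0.048).

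Over the whole time in RA and SAG the net change depended on the gene. From day 1 to day 15, both odd, CYP26B1 rose by 4.43 ± 0.46 and DHRS3 by 2 ± 0.14 on the log2 scale, 2 of the 3 genes beside 74.4% of all genes. CYP26A1 stood at 12 ± 0.11 CPM on day 1 and at 15.9 ± 3.9 CPM on day 15, a difference of 0.41 ± 0.22 that did not pass (adjusted p = 0.098) but passed without replicate 2 (0.044) and on log2(TPM + 1) (0.015). From day 2 to day 14, both even, all 3 were called beside 71.2% of all genes: CYP26A1 fell by 1.71 ± 0.25, while CYP26B1 rose by 1.98 ± 0.47 and DHRS3 by 2 ± 0.15.

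The protein-coding genes whose 15 day means of log2 CPM were most like those of each gene are given as a description, among 12392 genes compared. For CYP26A1 they were LANCL2 (Pearson r = 0.924), TSPYL2 (0.902) and KLHL42 (0.896). For CYP26B1 they were EXOC8 (0.919), ZNF596 (0.912) and BECN1 (0.895), and for DHRS3 they were BECN1 (0.984), CCDC149 (0.98) and DSCAM (0.97). Among the clearance genes r was 0.672 for CYP26A1 with CYP26B1, 0.606 for CYP26A1 with DHRS3 and 0.874 for CYP26B1 with DHRS3. All these values share the same libraries and the common course of differentiation.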

How the data were processed

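Polyadenylated RNA was sequenced in 45 libraries. The submitters' processing notes name bcl2fastq 2.20.0 for demultiplexing, RSEM and GRCh38. The aligner, the annotation and the counting strand were not given in the sources used here. The deposited expected counts are RSEM estimates by the authors, which share ambiguous reads among genes, and they were rounded here. The authors scaled the deposited TPM values for length and library total, and these serve here to compare genes. Gene names and positions come from GENCODE.

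The fit used edgeR 4.0.16 (R 4.3.3), a robust quasi-likelihood model with TMM factors and edgeR's own low-count filter by day, with day as a factor over all libraries (22835823 to 39066247 counts; 30 residual degrees of freedom; median biological coefficient of variation 8.62%). P-values were Benjamini-Hochberg adjusted over all genes tested, and calls were made under 0.05. CPM values are TMM-scaled. SEs were derived from the F statistic. Exact permutation tests used day means. With 3 libraries against 3 such a test cannot go below 0.1. Scripts were tested on simulated data.

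Genes, lists and contrasts were chosen with earlier results of these data known. From each list, at most 3 called genes with the largest change and at least 1 CPM were named, with the 3 genes most like each clearance gene; others are named after their values were seen. Some pathway genes are not reported here and were left out of the lists and their counts. Alternatives were DESeq2 1.42.0, its size factors, no filter, limma 3.58.1 on log2(TPM + 1) and log2(TPM + 0.1), a replicate term, other sets of days, and left-out replicates.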

Additional observations from a re-analysis of the deposited data

Results flagged for a closer look

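The odd-even difference of CYP26A1 stands out because it differed between the early and the late days by a test of that difference. It was 0.57 ± 0.17 on the log2 scale over days 4 to 8 and 1.71 ± 0.13 over days 9 to 15, so it was larger by 1.14 ± 0.21 (edgeR, adjusted p = 0.003). This call was lost without replicate 1 (adjusted p = 0.16) and on log2(TPM + 0.1). The excess was not particular to CYP26A1 in size: that of CYP26B1 was 1.18 ± 0.42 (edgeR, adjusted p = 0.11) and passed in DESeq2. The early contrast holds the single high day 5 and the lower day 7, at 16.6 ± 0.26 and 3.6 ± 0.61 CPM. The test uses the spread of libraries within days and leaves out the spread between days of the same parity. It therefore cannot show that parity itself mattered more on the late days.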

How the results depend on the processing

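No change of the 3 tested genes that passed reversed its direction under any alternative run. Among those that did not pass, 6 changed sign under at least 1 alternative, all with an adjusted p of at least 0.59 in the fit of all libraries: CYP26B1 from day 2 to 4, 10 to 12 and 12 to 14, and DHRS3 from day 5 to 6, 11 to 13 and 12 to 14. The replicate numbers did not pair the libraries: over 315 correlations of same-numbered deviations the median was 0.00161, in 0 of 105 day pairs were all above 0.1, and in 14 of them each library correlated best with its own number. A fit with the replicate number as a block called 3694 genes between odd and even days (3640 without it) and left the 21 calls between consecutive days at 21. The excess of the late over the early odd-even difference of CYP26A1 (1.14) ran from 1.02 to 1.22 with a replicate left out, was 1.22 without replicate 1 and was 1.17 on log2(TPM + 0.1), and did not pass in these last 2 (adjusted p = 0.16 and 0.069). That of CYP26B1 passed on log2(TPM + 1) (1.18), on log2(TPM + 0.1) (1.35) and in DESeq2 (1.18). The rise of CYP26B1 on day 1 passed on log2(TPM + 0.1) (1.06), in DESeq2 (1.33) and in a fit of the 2 days alone (1.34). The early odd-even difference of CYP26A1 passed in DESeq2 (0.57). With the 7 day means as replicates, the odd-even differences were 1.69, 1.75 and 0.5 for CYP26A1, CYP26B1 and DHRS3 and could not pass. With a replicate or library left out, calls between consecutive days numbered 12 to 22, calls between days of the same parity 0 to 3, and genes called between odd and even days 1314 to 3979. The last count was 2303 on log2(TPM + 0.1) and 1267 in a fit of days 9 to 15 with a linear term in day. The causes were not tested, except that leaving out replicates leaves fewer samples. Depth limits CYP26C1, and CYP26B1 before day 9, when it stayed at or under 93 counts in a library. Leaving out day 15 replicate 3 or day 0 replicate 2 was chosen after seeing the data.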
